A study of Arabidopsis thaliana with 33 samples.

Results

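The comparison described here is elevated against ambient CO2 in leaves of Arabidopsis thaliana grown on limiting nitrogen and sampled at midnight, and it rests on 8 of the 33 arrays of the series. Members were taken by their labels alone: 4 arrays of plants kept at 750 ppm CO2 and 4 of plants kept at 370 ppm CO2. Both groups were wild-type Col-0, received 0.25 mM NH4NO3 in the nutrient solution, grew in a cycle of 10 h light at 21 °C and 14 h dark at 18 °C, and were sampled at 35 days after germination from the youngest leaves that had reached full expansion. The other 25 arrays cover the same CO2 contrast at midday and at ample nitrogen (6 mM NH4NO3), and the series asks how far nitrogen supply limits the effect of elevated CO2 on transcripts of leaf respiration. RNA was hybridised to Affymetrix arrays, and every value below is a log2 expression value on a scale where the median of each array is 0, so that a difference of 1 is a doubling. The labels do not say how many plants or growth chambers stand behind an array. Without that, chamber and CO2 cannot be told apart here, and the spread between arrays may be technical. As whole leaves were sampled, fewer cells of a type and less RNA per cell cannot be told apart either.

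At night a leaf has no photosynthesis and lives on the starch and sugars stored in the light. These are broken down through glycolysis and the tricarboxylic acid (TCA) cycle, and the electrons pass down the mitochondrial chain to oxygen. Plants grown in elevated CO2 usually hold more carbohydrate, while low nitrogen limits the protein that can be built from it. Plant mitochondria also carry alternative NAD(P)H dehydrogenases that pass electrons to the chain without pumping protons.

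Of the 8 arrays, 1 stood apart from the others. The elevated-CO2 array numbered replicate 1 had a mean correlation of 0.932 with the other 3 elevated arrays, against 0.952 to 0.977 for the other 7 arrays of the comparison with their own groups. It scored 66.2 on the first principal component of the 8 arrays, which held 54.7% of the variance, while the elevated replicates 2 to 4 scored 7.12, -10.4 and 16.3 and the ambient arrays -27.5 to -14.4. On this array 11.2% of probe sets lay more than 1 log2 unit from the mean of the other 7 arrays; the others had 0.423% to 1.89%. Its genes for the dehydrins LTI30 and COR47, proteins that protect cells losing water, stood far above the rest: LTI30 was 2.24, -1.53, -1.39 and -1.87 on the elevated arrays and -2.07, -0.57, -1.81 and -1.42 on the ambient arrays, and COR47 was 4.76, 2.04, 2.22 and 2.25 against 1.83, 3.25, 2.03 and 2.26. Replicate 1 was the highest of the 8 arrays for both genes, ambient replicate 2 came second for both, and the other elevated and ambient arrays overlapped. Without replicate 1 the log2 difference of LTI30 went from 0.83 to -0.13 and that of COR47 from 0.48 to -0.17. The list of cold and water stress genes had 4 measured members with a median of -0.01 (-0.37 without replicate 1). Its other members, COR15A and COR15B, encode small proteins of the chloroplast stroma and were not high on replicate 1: COR15A was 4.53, 4.28, 4.52 and 3.96 against 5.08, 4.76, 4.61 and 4.84, and COR15B was 2.33, 2.14, 2.09 and 0.92 against 3.396, 2.32, 2.45 and 2.07. RNA quality, taken as the log2 ratio of 3' to 5' signal over 6 plant control pairs, was 1.72, 2.00, 1.96 and 1.99 on the elevated arrays and 2.32, 1.78, 2.25 and 2.098 on the ambient arrays, a difference of -0.196 (exact two-sided permutation test, p = 0.2; the smallest p that 4 against 4 can give is 0.0286). Own-group correlations of the other 25 arrays of the series went from 0.893 to 0.983, so that of replicate 1 was low for the 8 arrays but not the lowest of all. Most differences below are therefore also given without elevated replicate 1, and the others are given with all 8 arrays only.

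**Figure D1:**
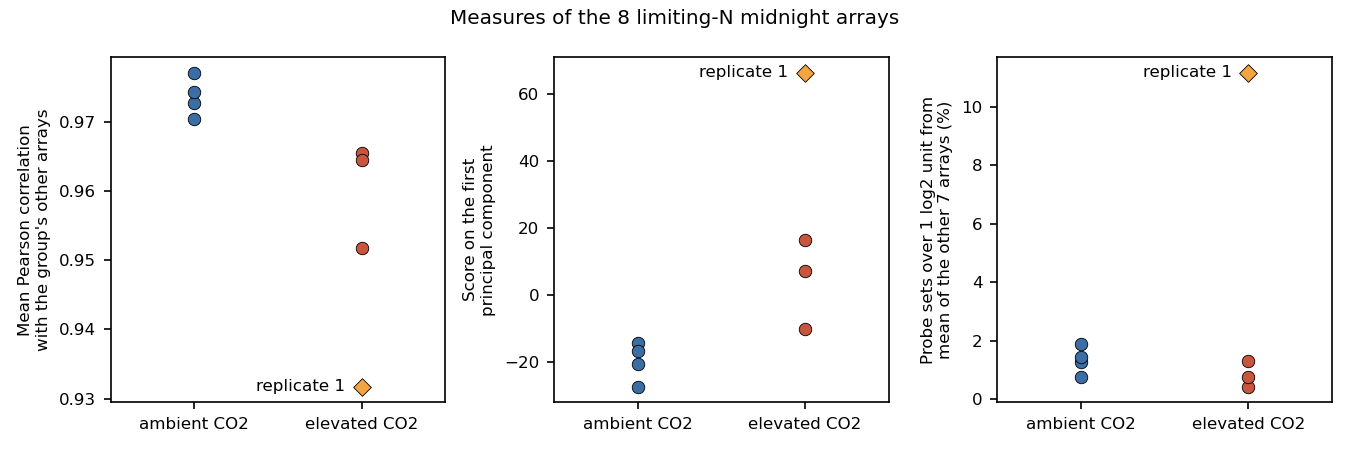
Measures of the 8 arrays (left, mean correlation with the other arrays of the same group; middle, score on the first principal component; right, percent of probe sets over 1 log2 unit from the mean of the other 7 arrays), 1 point per array. Elevated replicate 1, the diamond, lies apart in each, at 0.932, 66.2 and 11.2%.

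The tissue label was checked against genes a leaf must express. Rubisco activase (RCA), which keeps the carbon-fixing enzyme active, was 5.32, 5.63, 5.74 and 5.74 on the elevated arrays and 6.03, 5.89, 6.08 and 5.85 on the ambient arrays, far above the array median of 0 in all 8. Phosphoribulokinase (PRK) lay between 4.58 and 5.60. Of the cell type markers listed for mesophyll, trichomes, phloem, xylem, roots, floral organs and dividing cells, none was measured by a probe set that names a single gene, so a change in the share of those cells was not tested. Of 4 guard-cell markers 2 were measured: FMA, the transcription factor that completes stomatal development, was -2.16, -1.74, -1.71 and -1.92 against -1.45, -1.97, -1.65 and -1.62 (log2 difference -0.21), and AT1G22690, a GASA family gene, was 0.81, 1.65, 0.67 and 1.46 against 1.87, 1.43, 1.58 and 1.98 (log2 difference -0.57). The groups overlapped for both, and their part in the results was not tested.

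Few of the measured probe sets differed clearly. In limma, fitted on all 33 arrays with 1 mean per group and adjusted by Benjamini-Hochberg over 12772 probe sets, 2 probe sets rose in elevated CO2 (0.0157%) and 2 fell (0.0157%) at an adjusted p under 0.05. At a looser adjusted p under 0.1, 22 were higher (0.172%) and 19 lower (0.149%). An unadjusted p under 0.05 was reached by 830 higher (6.5%) and 1416 lower probe sets (11.1%). Differences had a median of -0.04, 43.8% lay above 0, and 5% of probe sets lay below -0.56 and 5% above 0.55, with a median standard error of 0.20. In 433 probe sets all 4 elevated arrays lay above all 4 ambient arrays (3.39%), and in 767 all lay below (6.01%). Without elevated replicate 1 no probe set passed either adjusted threshold. In that fit 317 higher and 496 lower ones had an unadjusted p under 0.05. This is 813 of 12772, against 2246 with all arrays, and how many are the same probe sets was not counted. The number of calls depended on single arrays in both directions. Omitting replicate 3 of the elevated group raised it to 384 at an adjusted p under 0.05 and 1068 at 0.1, and omitting replicate 2 of that group raised it to 52 and 489. Omission of its replicate 4, or of replicate 1 or 4 of the ambient group, left 0 at either threshold. With ambient replicate 2 omitted there were 1 and 2 calls, and with ambient replicate 3 omitted there were 0 and 18.

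Of the 4 probe sets past 0.05, 2 name a gene. HON4, which encodes a protein with a linker histone domain of the kind that binds DNA between nucleosomes, was 1.38, 1.54, 1.57 and 1.56 on the elevated arrays and 2.07, 1.96, 2.19 and 2.28 on the ambient arrays. All elevated values were below all ambient ones with a narrow spread, and HON4 fell by 0.61 ± 0.12 (SE; adjusted p = 0.0453, limma, n = 4 and 4). Without elevated replicate 1 the difference was -0.57 (adjusted p = 0.409). AT3G15350 belongs to the family of core-2/I-branching N-acetylglucosaminyltransferases, enzymes that build sugar chains. Its values were 1.31, 0.72, 0.56 and 0.98 against -0.14, 0.38, -0.20 and -0.09, again without overlap, and it rose by 0.91 ± 0.17 (limma adjusted p = 0.0453), or 0.77 without elevated replicate 1. The unnamed probe set 252414_at was -0.85, -2.43, -1.72 and -1.22 against -3.803, -3.695, -3.85 and -3.14 and rose by 2.07 ± 0.40 (limma adjusted p = 0.0453; 1.83 without replicate 1). The unnamed 265724_at was -2.01, -0.12, -0.75 and -0.91 against 0.25, 0.52, 0.67 and 0.56 and fell by 1.45 ± 0.28 (limma adjusted p = 0.0453; -1.096 without replicate 1). In both, elevated replicate 1 was the array farthest from the ambient group.

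Of the 41 probe sets past the looser threshold, 26 name a single gene and 36 did not overlap between the groups. Elevated replicate 1 was the most extreme elevated array in 34 of them. Leaving it out left none of them past the looser threshold, and all 41 kept their sign. In the 36 without overlap, sign and separation could not change, because removing an array cannot make separate groups overlap. The plot of the named probe sets by array shows the place of replicate 1. The diamonds lie at the outer end of most rows, and the other 3 elevated arrays lie between them and the ambient arrays.

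**Figure D2:**
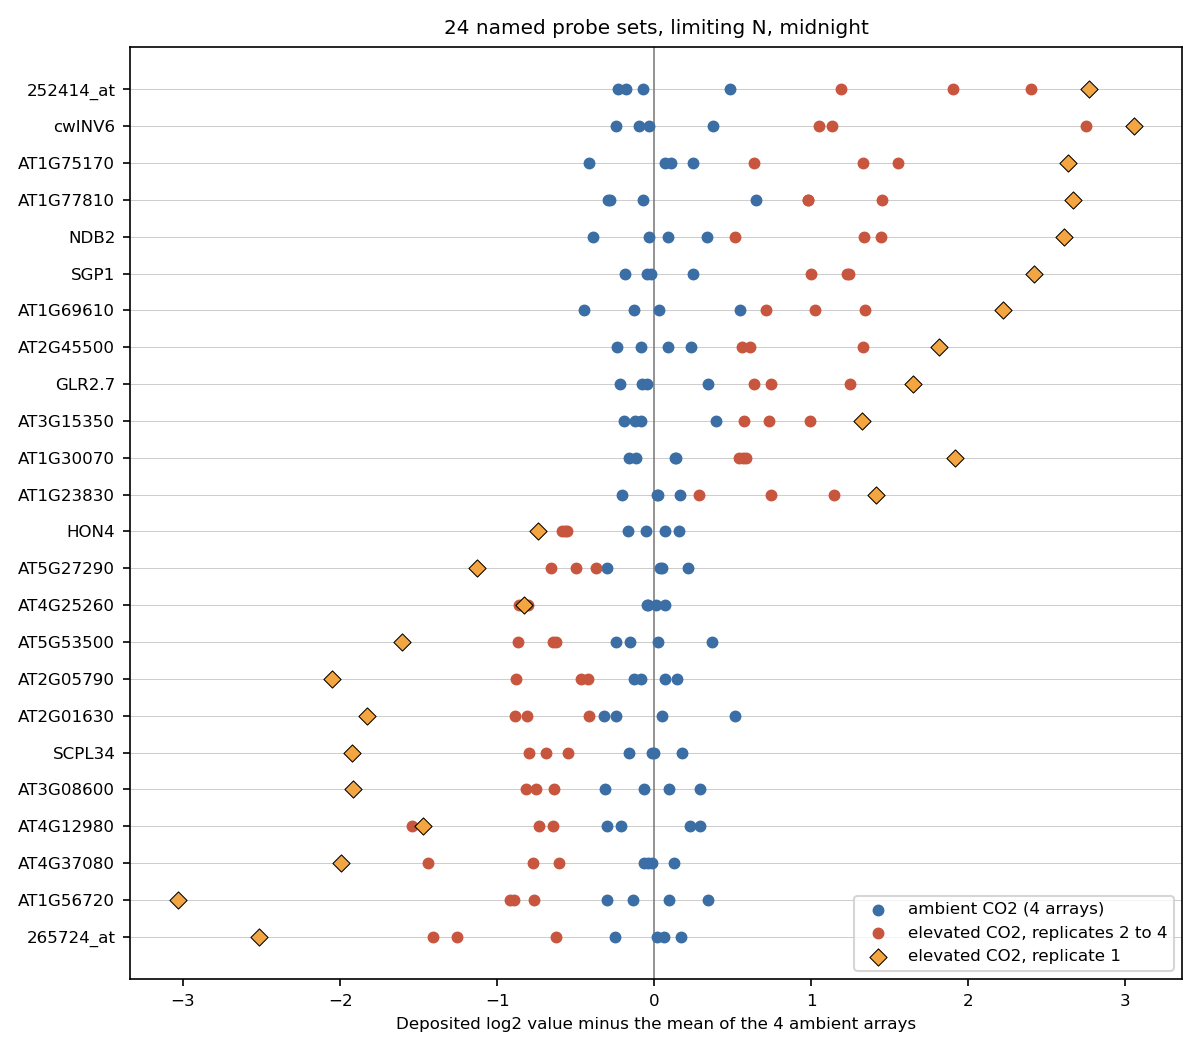
Values of the 24 named probe sets on each of the 8 arrays, as the log2 value minus the mean of the 4 ambient arrays, ordered by the log2 difference. Blue points are ambient arrays, red points elevated replicates 2 to 4 and diamonds elevated replicate 1; in each row the groups do not overlap, as the selection required for all but the 4 probe sets past 0.05.

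Among the single genes higher in elevated CO2 at the looser threshold and without overlap between the groups, cwINV6 had the largest difference. It is a member of the cell wall invertase family, enzymes that cleave sucrose or fructans outside the cell. Its values were 0.43, -1.49, -1.57 and 0.13 on the elevated arrays and -2.65, -2.25, -2.72 and -2.86 on the ambient arrays, a difference of 1.997 ± 0.42 (adjusted p = 0.0589, limma), or 1.64 without elevated replicate 1. Elevated replicates 1 and 4 were high, and replicates 2 and 3 lay in between. NDB2 encodes an external alternative NADH dehydrogenase of mitochondria, one of the enzymes that feed the chain without pumping protons. It was 2.26, 0.98, 0.16 and 1.09 against -0.38, -0.26, -0.01 and -0.74, a difference of 1.47 ± 0.31 (limma adjusted p = 0.0589), or 1.096 without replicate 1. Elevated replicate 3 lay just above the highest ambient array, and the other 3 elevated arrays were more than 1 unit above the ambient mean.

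GLR2.7, a glutamate receptor-like ion channel, was 1.68, 0.78, 0.67 and 1.28 against -0.19, -0.01, 0.38 and -0.04, a difference of 1.07 (0.87 without replicate 1). SGP1, a small monomeric G protein, was 1.44, 0.25, 0.02 and 0.26 against -1.02, -0.99, -0.73 and -1.16, a difference of 1.47 (1.15 without replicate 1). In SGP1 replicates 2 to 4 were close to each other and about 1 unit above the ambient arrays, and replicate 1 was higher by a further unit. AT1G77810, a galactosyltransferase family gene, was 2.19, 0.50, 0.50 and 0.97 against -0.76, -0.55, 0.17 and -0.78, a difference of 1.52 (1.14 without replicate 1). AT1G75170, a Sec14-like phospholipid transfer gene, was 1.26, -0.04, -0.74 and 0.18 against -1.13, -1.31, -1.27 and -1.79, a difference of 1.54 (1.17 without replicate 1). The probe set of AT1G75170 is of a type that can match related transcripts. The other genes past it were AT1G69610 with a difference of 1.32, the AAA-type ATPase AT2G45500 with 1.08, the SGS-domain gene AT1G30070 with 0.90, and AT1G23830 with 0.90. Without replicate 1 AT1G69610 differed by 1.03, AT2G45500 by 0.83 and AT1G23830 by 0.72. AT1G30070 was 0.26, -1.08, -1.12 and -1.09 against -1.82, -1.52, -1.78 and -1.53. Replicate 1 was far above the other elevated arrays, and without it the difference was 0.56. For these 8 genes the limma adjusted p lay between 0.0565 and 0.0966. The probe set 254975_at, which names no gene, had the largest difference of all 41 and is given here after its value was seen: 3.74, 1.94, -0.81 and 2.91 against -2.56, -2.84, -1.97 and -2.71, a difference of 4.47 ± 0.93 (limma adjusted p = 0.0589; 3.87 without replicate 1). Elevated replicates 1, 2 and 4 were high, and replicate 3 lay between them and the ambient arrays.

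Among the genes lower in elevated CO2 at the looser threshold, AT4G25260, of the pectin methylesterase inhibitor family, had values close together within each group: -1.96, -1.99, -1.98 and -1.94 on the elevated arrays and -1.17, -1.12, -1.18 and -1.06 on the ambient arrays. Its difference of -0.83 ± 0.18 (limma adjusted p = 0.0764) was -0.83 without elevated replicate 1. AT2G01630 and AT2G05790 are both of glycosyl hydrolase family 17, which cleaves beta-1,3-glucans. AT2G01630 was -3.88, -2.87, -2.94 and -2.47 against -2.296, -2.37, -1.54 and -2.01, a difference of -0.99 (-0.71 without replicate 1). AT2G05790 was -0.02, 1.57, 1.62 and 1.16 against 2.18, 1.96, 1.91 and 2.104, a difference of -0.95, and replicate 1 alone was near 0 where the rest were above 1, so that the difference without it was -0.59. SCPL34, a serine carboxypeptidase-like gene, was -1.099, 0.13, 0.27 and 0.03 against 1.002, 0.81, 0.66 and 0.82, a difference of -0.99 (-0.68 without replicate 1).

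AT1G56720, a protein kinase gene, had the largest difference among these named genes, with -4.07, -1.803, -1.95 and -1.93 against -1.33, -0.94, -1.17 and -0.69, or -1.403 ± 0.31 (limma adjusted p = 0.0821). Replicate 1 lay more than 2 units below the other elevated arrays, and without it the difference was -0.86. The remaining genes were AT4G37080 (-1.204), the auxin-responsive family gene AT4G12980 (-1.098), AT3G08600 (-1.03), the WD40-repeat gene AT5G53500 (-0.94) and AT5G27290 (-0.66), as log2 differences. Without replicate 1 they were, in the same order without AT4G12980, -0.94, -0.74, -0.71 and -0.51. Values of AT4G12980 were -2.01, -1.18, -1.27 and -2.08 against -0.31, -0.84, -0.75 and -0.25, with replicates 1 and 4 low, and its difference without replicate 1 was -0.97.

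Genes of respiration were examined in the order of the pathway, from lists that describe and do not test. Lists name more genes than were measured, so counts and medians describe only the measured part of a pathway. Beside each list's median stands the median of all probe sets, -0.04. Glycolysis had 11 measured members, 5 above 0 and 6 below, with a median of -0.02. Leaving out 1 array at a time moved that median between -0.11 and 0.02, and it was above 0 without elevated replicate 1 or without ambient replicate 1. Highest were 2 genes for pyruvate kinase, which makes pyruvate in the last step. AT5G56350 was 2.06, 1.39, 1.199 and 1.58 against 1.00, 1.199, 1.03 and 0.64, a difference of 0.59 ± 0.14 (limma adjusted p = 0.0934), with elevated replicate 3 level with the highest ambient array. It is 1 of 2 members of any list past the looser threshold, the other being NDB2. AT5G63680 was 1.54, 1.02, 0.52 and 1.11 against 0.50, 0.64, 0.44 and 0.29, a difference of 0.58 ± 0.19 (limma adjusted p = 0.128). Without replicate 1 the differences of the pyruvate kinase genes were 0.43 and 0.41.

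The TCA cycle and pyruvate dehydrogenase had 16 measured members, 12 above 0 and 4 below, with a median of 0.07. It was 0.08 without elevated replicate 1 and up to 0.14 when other single arrays were left out (0.14 without ambient replicate 1, ambient replicate 2 or elevated replicate 4, and 0.13 without elevated replicate 3). None passed the looser threshold. The highest was AT4G26910, an E2 subunit gene of the 2-oxoglutarate dehydrogenase complex, with 2.897, 2.23, 1.703 and 2.26 against 2.29, 2.12, 1.52 and 1.32 and a difference of 0.46 ± 0.20 (limma adjusted p = 0.231). Both groups were spread widely and overlapped, and the difference was 0.25 when elevated replicate 1 was left out and 0.30 when ambient replicate 4 was left out instead.

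The mitochondrial electron transport chain and ATP synthase had 45 measured members, 26 above 0 and 19 below, with a median of 0.04. The median stayed at 0.04 without elevated replicate 1, turned to -0.02 without elevated replicate 2 (20 above 0 and 25 below), and was 0.01, 0.02 and 0.06 without ambient replicate 2, ambient replicate 3 and elevated replicate 3. All elevated arrays lay above all ambient ones in 1 of the 45, against 3.39% of all probe sets, a share near that background. It was AT5G25450, a small subunit gene of complex III: 1.65, -1.28, -1.76 and -1.12 against -1.99, -1.89, -1.93 and -2.72. Its difference of 1.51 ± 0.52 (limma adjusted p = 0.145) was 0.75 without replicate 1, the array about 3 units above the other elevated ones. Of the alternative dehydrogenases 3 were measured, and they went opposite ways. NDB2 was higher, as given above. NDB1, the external NADPH dehydrogenase, was 0.02, 0.58, 0.65 and 0.24 against 0.98, 0.68, 0.74 and 0.83 (difference -0.44 ± 0.18, limma adjusted p = 0.217; -0.32 without replicate 1). NDC1, a dehydrogenase found in mitochondria and plastids, was -0.24, -0.07, 0.11 and -0.18 against 0.55, 0.48, -0.17 and 0.44 (difference -0.42 ± 0.17, limma adjusted p = 0.201; -0.37 without replicate 1), with ambient replicate 3 alone among the elevated values.

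Measured genes of the chloroplast lay mostly below 0. Most genes of the nuclear lists were not measured. Measured were 9 of 27 listed genes for chlorophyll synthesis, 4 of 23 for the Calvin-Benson cycle and 6 of 23 for photorespiration. For the nuclear light reactions 9 of 56 were measured, and for nuclear plastid ribosomal proteins 9 of 37. Chlorophyll synthesis had 9 measured members, all below 0, with a median of -0.40 (-0.28 without elevated replicate 1), and in 5 of them all elevated arrays were below all ambient ones, against 6.01% of all probe sets. PORB, the light-dependent protochlorophyllide oxidoreductase B, was 1.59, 2.84, 2.504 and 2.16 against 3.04, 3.27, 2.94 and 2.92. Its difference of -0.77 ± 0.22 did not pass (limma adjusted p = 0.106) and was -0.54 without replicate 1. CHLM, the magnesium protoporphyrin methyltransferase, was 2.63, 3.74, 3.67 and 3.63 against 4.16, 3.93, 3.94 and 4.02: replicate 1 lay about 1 unit below the other elevated arrays, which were just below the ambient ones. The same shape was seen in AT1G74470, the geranylgeranyl reductase that makes the phytyl tail, with 3.09, 4.14, 4.16 and 4.08 against 4.39, 4.58, 4.24 and 4.43. CHLI2, a magnesium chelatase subunit, had a difference of -0.49. Without replicate 1 the differences of CHLM, AT1G74470 and CHLI2 were -0.33, -0.28 and -0.31.

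The Calvin-Benson cycle had 4 measured members, all below 0, with a median of -0.45 (-0.31 without replicate 1). PRK, which regenerates the CO2 acceptor, was 4.58, 5.29, 5.23 and 5.11 against 5.601, 5.38, 5.58 and 5.604 and differed by -0.49 ± 0.16 (limma adjusted p = 0.13). SBPASE, the sedoheptulose bisphosphatase of the same regeneration phase, differed by -0.50, RCA by -0.36 and the phosphoglycerate kinase gene AT1G56190 by -0.40. Without replicate 1 the differences of PRK, SBPASE, RCA and AT1G56190 were -0.33, -0.37, -0.26 and -0.29. Photorespiration, the pathway that recovers carbon when Rubisco fixes oxygen, had 6 measured members, 5 below 0, with a median of -0.36 (-0.21 without replicate 1). HPR, the hydroxypyruvate reductase of peroxisomes, was 4.18, 4.898, 4.84 and 4.700 against 5.47, 5.29, 5.24 and 5.03, without overlap. It differed by -0.60 ± 0.18 (limma adjusted p = 0.124), or -0.44 without replicate 1. The glycerate kinase gene AT1G80380 differed by -0.35, or -0.23 without replicate 1.

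Nuclear genes of the light reactions had 9 measured members, all below 0, with a median of -0.34 (-0.23 without replicate 1). ATPC1, the gamma subunit of the chloroplast ATP synthase, was 4.62, 5.102, 5.31 and 5.01 against 5.41, 5.35, 5.45 and 5.35, with all elevated arrays below all ambient ones in this member alone, 1 of 9, against 6.01% of all probe sets. Its difference was -0.38 (-0.25 without replicate 1). The antenna genes LHCB4.1 and LHCB4.2 differed by -0.34 and -0.57, and the photosystem I subunit gene PSAN by -0.33. Without replicate 1 LHCB4.1 and PSAN each differed by -0.23. LHCB4.2 was 2.21, 3.602, 3.102 and 2.91 against 3.57, 3.502, 3.79 and 3.25, with elevated replicate 2 inside the ambient range, and its difference was -0.32 without replicate 1. Nuclear genes of plastid ribosomal proteins had 9 measured members, all below 0, with a median of -0.33 that was -0.16 without replicate 1; the lowest p belonged to AT3G54210 (-0.38). Of 68 probe sets of plastid-encoded genes 63 lay below 0, with a median of -0.28. Their median deviation from the ambient mean was -0.63, -0.26, 0.30 and -0.41 on the elevated arrays and 0.02, -0.08, 0.34 and -0.22 on the ambient arrays, so that replicate 3 of each group stood above the rest and the groups overlapped. Without elevated replicate 1 the median of the differences was -0.13, and without elevated replicate 3 it was -0.44. The plastid gene psaB, a core protein of photosystem I, was 5.199, 5.502, 5.96 and 5.77 against 5.98, 6.03, 6.11 and 5.98.

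**Figure D3:**
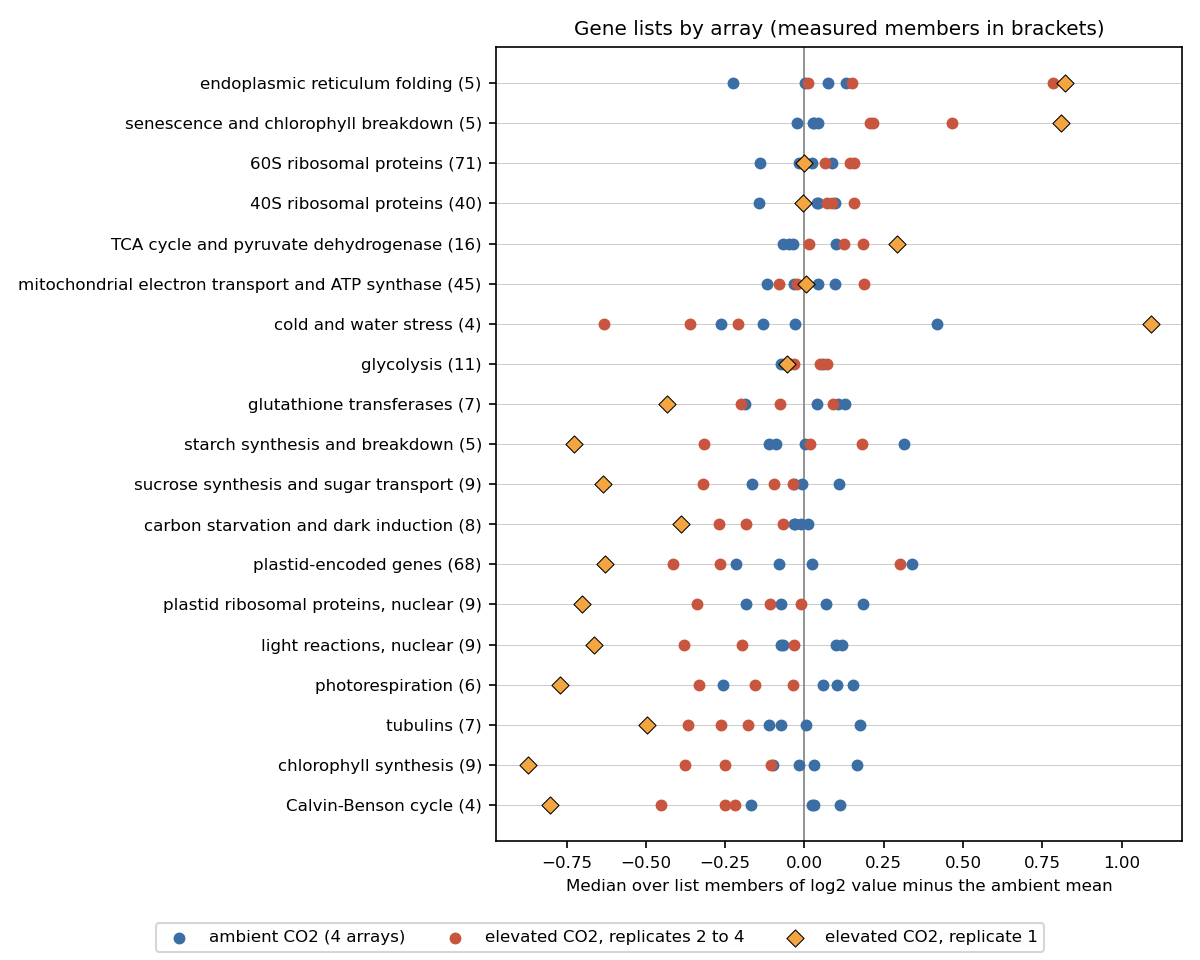
Median over the measured members of each gene list of the log2 value minus the ambient mean, for each of the 8 arrays, for lists with 4 or more members. Blue points are ambient arrays, red points elevated replicates 2 to 4 and diamonds elevated replicate 1, which lies lowest in the lists of the chloroplast, of starch and of sugars and highest in those of senescence, of the endoplasmic reticulum and of cold and water stress.

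Genes of stored carbon and its use at night gave smaller medians. Starch synthesis and breakdown had 5 measured members, 4 below 0, with a median of -0.19 (-0.08 without replicate 1). The exception was AMY1, an alpha-amylase, with -1.23, -1.64, -1.91 and -0.81 against -1.99, -1.99, -2.71 and -2.89, a difference of 1.00 ± 0.46 (limma adjusted p = 0.256) that was 0.94 without replicate 1. The starch-branching enzyme gene SBE2.2 differed by -0.34, and by -0.17 or -0.51 without elevated replicate 1 or 3. Sucrose synthesis and sugar transport had 9 measured members, 7 below 0, with a median of -0.20. It was -0.15 without elevated replicate 1 (4 above 0 and 5 below) and -0.37 without elevated replicate 3. In 2 of the 9, both carriers of the vacuole membrane, all elevated arrays lay below all ambient ones, against 6.01% of all probe sets: SWEET2 was 0.13, 0.52, 0.59 and 0.45 against 1.15, 0.78, 0.94 and 0.92, and TMT1 was 1.58, 1.66, 1.77 and 1.66 against 1.87, 2.05, 2.102 and 2.08. They differed by -0.53 ± 0.22 and -0.36 ± 0.17 (limma adjusted p = 0.213 and 0.275), or -0.43 and -0.33 without replicate 1. ATSPS4F, a sucrose phosphate synthase, differed by -0.56 (-0.30 without replicate 1). Carbon starvation and dark-induced genes had 8 measured members, 7 below 0, with a median of -0.22 (-0.16 without replicate 1). MCCA, the biotin subunit of the carboxylase that breaks down leucine, was -0.99, -0.75, -0.67 and -0.67 against -0.20, -0.37, -0.38 and -0.35, a difference of -0.45 ± 0.14 (limma adjusted p = 0.128) and -0.38 without replicate 1.

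Nitrogen uptake and assimilation was poorly covered, with 2 of 43 listed genes measured: the MYB-like transcription factor genes AT1G68670 and AT1G25550, at 0.13 ± 0.21 and 0.06 ± 0.23. Ribosomal protein genes of the cytosol, a large consumer of nitrogen, were near 0. The 40 of the small subunit had a median of 0.08 with 31 above 0, and the 71 of the large subunit had a median of 0.09 with 54 above 0. In 4 of the small-subunit genes all elevated arrays were above all ambient ones, against 3.39% of all probe sets. Among them AT5G39850 was 0.01, -0.26, -0.22 and -0.09 against -1.297, -0.80, -0.49 and -0.85, and AT3G57490 was 0.61, 0.37, 0.41 and 0.45 against -0.19, 0.08, -0.03 and -0.32. Their differences were 0.72 ± 0.22 and 0.57 ± 0.19 (limma adjusted p = 0.124 and 0.133), or 0.67 and 0.52 without elevated replicate 1. Leaving out that array moved the list medians to 0.10 and 0.11. Without ambient replicate 2 they dropped to 0.0093 (23 above 0 and 17 below) and 0.043, and the small-subunit median was 0.12 and 0.125 without ambient replicates 1 and 4.

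Defence and senescence genes lay above 0. Salicylic acid and basal defence had 3 measured members of 24 listed, all above 0, with a median of 1.04. CHI, a chitinase gene, was 3.84, 2.99, 0.85 and 3.53 on the elevated arrays and -0.82, -0.16, -0.43 and 0.19 on the ambient arrays. Its difference of 3.105 ± 0.80, a 8.602-fold higher level, was the largest of any list member and missed the looser threshold (limma adjusted p = 0.106). Elevated replicates 1, 2 and 4 were high and replicate 3 was closer to the ambient arrays, and without replicate 1 the difference was 2.76. WRKY53, a transcription factor of senescence and defence, was 2.21, 1.12, 0.01 and 1.78 against 0.49, 0.30, 0.54 and -0.38, with replicate 3 again low and the groups overlapping, a difference of 1.04 (0.73 without replicate 1). SAG101, the lipase-like partner of the defence regulator EDS1, was 0.05, -1.29, -1.25 and -0.59 against -1.47, -1.37, -1.52 and -1.63, where replicates 2 and 3 were just above the ambient range, and its difference of 0.72 was 0.45 without replicate 1. Both genes are also in the senescence list, whose 5 measured members were all above 0 with a median of 0.43 (0.31 without replicate 1). APG8A, an autophagy gene, was 1.64, 1.13, 1.09 and 1.19 against 0.85, 0.81, 0.77 and 0.89.

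The defensin genes PDF1.2 and PDF1.2b, targets of jasmonate and ethylene, differed by 1.39 ± 0.72 and 1.38 ± 0.78. PDF1.2 was 0.83, 2.21, 0.90 and 0.80 against 0.14, 0.42, 0.16 and -1.53, with elevated replicate 2 high and ambient replicate 4 low, and without that ambient array the differences were 0.95 and 0.86. They are close copies, and the probe set of PDF1.2b is of a type that can detect both. Genes of protein folding in the endoplasmic reticulum had 5 measured members, all above 0, with a median of 0.44 (0.32 without replicate 1, with 1 below 0). BZIP60, the transcription factor of the unfolded protein response, was 2.23, 1.79, 1.04 and 1.58 against 1.01, 1.12, 1.14 and 0.78, a difference of 0.65 ± 0.26 (limma adjusted p = 0.198; 0.46 without replicate 1). CRT1b, a calreticulin, was 2.74, 2.799, 1.84 and 2.07 against 2.06, 1.99, 1.93 and 1.69, where replicates 1 and 2 were high and replicates 3 and 4 near the ambient level. BCAT4, which starts the lengthening of methionine for glucosinolates, differed by 0.62 and overlapped.

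Genes of epidermal patterning and of the cytoskeleton lay below 0. STOMAGEN, a secreted peptide that promotes stomata, was -1.33, 0.58, 0.57 and -0.02 against 1.38, 0.95, 0.85 and 1.29, without overlap. Its difference of -1.16 ± 0.41 (limma adjusted p = 0.152) was -0.74 without replicate 1. TRY, a small MYB protein that represses trichome formation, was -3.48, -2.21, -2.13 and -3.09 against -1.45, -2.603, -1.89 and -1.77, with ambient replicate 2 inside the elevated range, a difference of -0.80 (-0.55 without replicate 1). All 7 measured tubulin genes were below 0, with a median of -0.40 (-0.27 without elevated replicate 1 and -0.26 without ambient replicate 2). In 2 of the 7 all elevated arrays lay below all ambient ones, against 6.01% of all probe sets. TUB6 was 1.27, 1.89, 2.16 and 1.92 against 2.19, 2.22, 2.199 and 2.41 and TUB1 was -2.96, -1.800, -2.14 and -1.69 against -1.65, -1.12, -1.06 and -1.54, both without overlap, with differences of -0.45 and -0.80 (limma adjusted p = 0.138 and 0.186), or -0.27 and -0.53 without replicate 1. TUB5 was 0.21, 1.73, 1.59 and 1.78 against 1.91, 2.16, 1.76 and 1.95, and its difference of -0.61 was -0.24 without replicate 1. Glutathione transferases, enzymes of detoxification, had 7 measured members, 6 below 0, with a median of -0.08 that was 0.02 without elevated replicate 1 (5 above 0 and 2 below), and -0.17, -0.19 and -0.14 without ambient replicate 2, elevated replicate 2 and elevated replicate 4.

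Whether nitrogen supply or time of day changed the CO2 difference was tested as an interaction. No probe set differed between limiting and ample nitrogen at midnight at an adjusted p under 0.05 (limma, 0% of 12772), and none between midnight and midday at limiting nitrogen (0%). An unadjusted p under 0.05 was reached by 347 probe sets for nitrogen and 616 for time. Each is a smaller share of the 12772 than the 0.05 that chance gives on average. Neither number therefore shows an excess over chance. The smallest limma adjusted p was 0.9997 for nitrogen and 0.831 for time. Without elevated replicate 1 no probe set had an adjusted p under 0.05 for either interaction. In that fit 337 and 415 probe sets had an unadjusted p under 0.05, again below the share that chance gives. The values of the 4 conditions follow without a claim that they differ. HON4 had CO2 differences of -0.61 ± 0.12 at limiting nitrogen and midnight, 0.12 ± 0.12 at limiting nitrogen and midday, -0.19 ± 0.11 at ample nitrogen and midnight, and 0.06 ± 0.13 at ample nitrogen and midday. Its unadjusted p for the interaction with time was 0.000129 (limma adjusted p = 0.831). HON4 and the genes that follow were named by their difference at limiting nitrogen and midnight. That difference is part of both interactions, so their unadjusted interaction p-values lean towards small values. Interaction p-values are also given for only some of the named genes, chosen by no set rule. They cannot be read as tests planned in advance. AT3G15350 had 0.91, -0.0048, 0.36 and 0.26 in the same order of conditions. For cwINV6 the values were 1.997, 1.55, 1.21 and 1.11. Of the 41 probe sets past the looser threshold, 37 had the same sign at limiting nitrogen and midday. The same sign was seen in 40 at ample nitrogen and midnight and in 38 at ample nitrogen and midday. The share of all probe sets with the same sign was not counted.

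NDB2 differed by 1.47 ± 0.31 at midnight on limiting nitrogen and by 1.297 ± 0.28 at midnight on ample nitrogen, against 0.33 ± 0.31 and 0.32 ± 0.34 at midday. Its interaction with nitrogen had an unadjusted p of 0.676 and that with time 0.0144, neither past the threshold after adjustment. CHI was higher in each condition, by 3.105, 1.94, 2.81 and 3.58 in the order used for HON4, and STOMAGEN lower in each, by -1.16, -1.07, -1.36 and -0.94. PORB had -0.77, -0.30, -0.21 and -0.07. In that order the list medians were -0.45, -0.25, -0.37 and -0.32 for the Calvin-Benson cycle and -0.36, -0.40, -0.43 and -0.31 for photorespiration. They were -0.40, -0.41, -0.20 and -0.07 for chlorophyll synthesis and -0.34, -0.13, -0.17 and -0.18 for nuclear light-reaction genes. Nuclear plastid ribosomal protein genes had -0.33, -0.58, -0.18 and -0.17, and plastid-encoded genes -0.28, -0.17, -0.26 and -0.08. All lay below 0. Medians of the small- and large-subunit ribosomal protein lists at ample nitrogen were -0.0089 and -0.05 at midnight and 0.09 and 0.12 at midday. At limiting nitrogen they were 0.08 and 0.09 at midnight and -0.34 and -0.32 at midday. AT3G57490 was 0.57 ± 0.19 at midnight and -0.27 ± 0.19 at midday, with an unadjusted interaction p of 0.00366, and the large-subunit gene AT2G39390 was 0.30 and -0.46, with 0.00438 (both adjusted p = 0.97, limma). For LHCB4.2 the CO2 difference was -0.57 on limiting and 0.32 on ample nitrogen at midnight, with an unadjusted p of 0.0105 that was lost on adjustment. Without elevated replicate 1 the unadjusted interaction p was 0.00040 for HON4, 0.0603 for NDB2, 0.0083 for AT3G57490 and 0.00882 for AT2G39390 with time, and 0.0458 for LHCB4.2 with nitrogen.

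**Figure D4:**
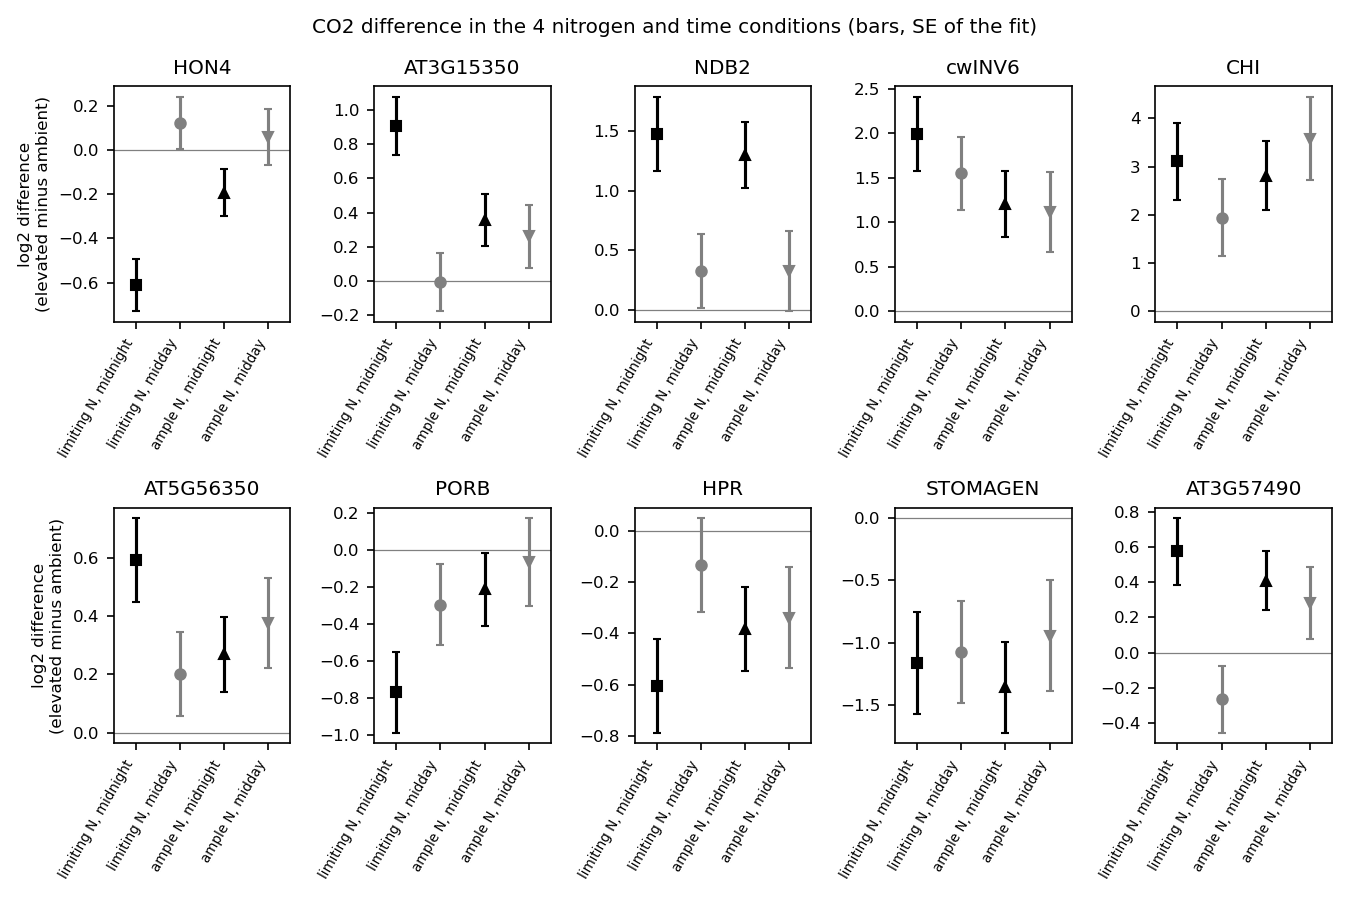
CO2 difference (elevated minus ambient, log2, bars give the SE of the fit) of 10 named genes at limiting or ample nitrogen and midnight or midday, each panel with its own vertical axis. NDB2 stands at 1.47 and 1.297 at midnight and near 0.33 at midday, while STOMAGEN lies between -1.36 and -0.94 in all 4 conditions.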

How the data were processed

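Leaf RNA was measured on Affymetrix 3' arrays with biotin-labelled targets, per the labels' protocols. The authors deposited log2 expression values, 1 per probe set, and the values show each array centred on a median of 0; for the summarisation method, build and any probe set filter, the sources used here give nothing. Of 12826 probe sets, 54 controls were left out and 12772 tested. The platform annotation and the TAIR10.1 gene table gave 6898 probe sets 1 gene, 272 several genes and 5602 none.

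Groups follow the sample titles. Elevated was compared with ambient CO2 in limma 3.58.1 (R 4.3.3) on all 33 arrays, with 1 mean per group and Benjamini-Hochberg adjustment. The code was tested on simulated data. A gene with several probe sets is read from the brightest. Named are all probe sets with an adjusted p under 0.05; up to 12 single genes in each direction with an adjusted p under 0.1 and no overlap; and up to 4 genes per list by p. The members, lists and thresholds were chosen with earlier results of these data known, so lists carry no test. With 4 arrays a group, the number of arrays limits the precision. Same replicate numbers did not deviate together (correlations -0.176 to 0.124), so no pairing was used. No sequence was used, and the planned promoter description was not run. Alternatives were other normalization, filter, arrays, block, weights, variance moderation and each array left out. Listed but not measured were genes of the clock and of flavonoid synthesis.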

Additional observations from a re-analysis of the deposited data

Results flagged for a closer look

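In a group of 4 arrays, a highest or lowest value was set apart where its gap to the next exceeded Dixon's critical share of the group's range. Of 202 such groups, 20 met this, where chance gives about 1 in 20 for independent groups. These groups share the same arrays, and many are of genes chosen for their differences, so no excess over chance can be read from the count. Elevated replicate 1 gave 12 of them: low log2 values for AT1G56720 (-4.07), HON4 (1.38), AT3G08600 (-1.86), CHLM (2.63), AT1G74470 (3.09), CHLI2 (0.22) and TUB5 (0.21), high values for SGP1 (1.44), AT1G30070 (0.26), LTI30 (2.24) and COR47 (4.76), and the lowest log2 ratio of 3' to 5' control signal in its group (1.72). Other elevated arrays gave a high PDF1.2 on replicate 2 (2.21) and a low COR15B on replicate 4 (0.92). Among ambient arrays, MCCA was high on replicate 1 (-0.20), PRK low on replicate 2 (5.39), NDC1 low on replicate 3 (-0.17), and on replicate 4 AT5G25450 (-2.72) and PDF1.2 (-1.53) were low and TUB6 high (2.41).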

How the results depend on the processing

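The number of probe sets called depended strongly on the fit. At an adjusted p under 0.05 the 4 calls became 0 in fits on the 8 arrays compared, on the 18 midnight arrays and with variance moderation by trend and robust, and 37 with array weights. At an adjusted p under 0.1 the 41 calls became 158 without the 30% dimmest probe sets (55 higher and 103 lower, against 22 and 19), 6 in the fit on the 8 arrays, 7 on the 18 midnight arrays, 200 with array weights and 79 with trend and robust. Quantile normalization gave 6 and 49 calls, 30 of the 49 higher. With the replicate number as a block the counts were 4 and 184 over all arrays, and 0 and 1 over the 8 arrays; the numbers share no source in the labels, and 1 of 8 arrays correlated best with its own number. Leaving out 1 array gave 0 to 384 calls at 0.05 and 0 to 1068 at 0.1. Of the 41 probe sets, all that were tested kept their sign under each of the 16 alternatives. Much of this was fixed in advance. The fits on the 8 arrays, on the 18 midnight arrays and with trend and robust use the same group means. Leaving out the dimmest probe sets does not alter the differences of those kept. Both block fits also give the same differences, because the same replicate numbers occur in both groups. Groups that do not overlap also keep their sign when 1 array is left out. Both interactions kept 0 calls under every alternative run for them. Without elevated replicate 1, LTI30 reversed to -0.13 and COR47 to -0.17, and leaving out other arrays gave up to 1.24 and 0.78. Over all control pairs the difference in the log2 ratio of 3' to 5' signal was 0.0747 (exact permutation test, p = 0.886). The cause of these changes was not tested. List medians near 0 (glycolysis, the mitochondrial chain, glutathione transferases, cold and water stress) changed sign when single arrays were left out. Limits are 4 arrays a group, 1 of which stands apart.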

Other observations

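Of the single genes past the looser threshold, 4 overlapped between the groups. AT5G56350 is described above, and the other three are named after their values were seen. AT4G22530, of the methyltransferase family that uses S-adenosylmethionine, had the largest difference of any single gene past that threshold, with 0.82, -0.82, -2.64 and -1.005 on the elevated arrays and -4.08, -2.52, -2.603 and -3.58 on the ambient arrays. Elevated replicates 1, 2 and 4 were high and replicate 3 lay among the ambient values, and the difference of 2.29 ± 0.54 (limma adjusted p = 0.091) was 1.71 without replicate 1. AT5G47060, of a family of small zinc finger proteins, was 0.18, -0.38, -0.44 and -0.65 against -1.73, -1.395, -0.59 and -1.39, a difference of 0.96. AT1G70280, of a family with NHL repeats, was -0.96, 0.22, -0.20 and -0.23 against 0.82, 0.21, 0.21 and 0.81, a difference of -0.80.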
